A study of Mus musculus with 29 samples.

Results

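The cells described here are the T cells of mouse peripheral blood after an experimental stroke. They were taken as every blood cell that the authors' deposited annotation gives the parent type Tc, and they made up 6921 of the 51709 blood cells and of the 106977 cells in the whole series. The annotation splits them into 5 subtypes under the codes Tc1 to Tc5, which held 2584, 2547, 1208, 310 and 272 cells, and the codes carry no other name.

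Gene expression was measured by Drop-seq, a method that captures single cells in droplets and tags the RNA of each with its own barcode. The 11 blood libraries came from C57BL/6J males of 8 to 10 weeks, and each pooled the blood of 2 mice, so that a library and not a mouse is the replicate. Controls had sham surgery and were bled at day 2 (4 libraries), and mice with stroke, induced by transient occlusion of the middle cerebral artery, were bled at day 2 (4 libraries) or day 14 (3 libraries). No sham library of day 14 was analysed here, so that in the comparison of stroke day 14 with sham the effects of stroke and of time since surgery cannot be told apart, and both stroke groups were set against the same 4 sham libraries. In every group red cells were lysed and depleted with beads, and actinomycin D, an inhibitor of RNA polymerase, and Brilliant Blue G were present during isolation. The labels do not say whether the libraries of a group came from separate surgical series, so that p-values measure the spread between these libraries.

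T cells recognise peptides or other ligands through a receptor of an alpha and a beta chain or of a gamma and a delta chain, which signals through the CD3 proteins. CD8 T cells kill infected or damaged cells, and CD4 T cells help other leukocytes or, as regulatory T cells, restrain them. In blood, naive cells that have not met antigen carry homing receptors for lymph nodes, whereas effector and memory cells carry receptors for inflamed tissue and make chemokines and cytotoxic proteins.

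The marker genes of the lineage were high in all 5 subtypes. Pooled over libraries, Cd3e, a CD3 chain, stood at 352 to 482 CPM (a gene's counts as a part of all counts in the class, with each class brought to the same sum) in the 5 subtypes, against 17.47 CPM in natural killer (NK) cells and 3.11 CPM in B cells. Cd3g, another CD3 chain, stood at 568 to 722 CPM in the subtypes, 32.3 CPM in NK cells and 4.25 CPM in B cells. At least 1 of Cd3e, Cd3g and Cd3d was detected in 65.3% of T cells and in 0.878% of B cells, with medians of 516 and 422 counts per cell. All 16 genes of the T cell list were found at over 50 CPM in Tc1 to Tc4, and 15 of 16 in Tc5. Of defining genes of other cells, the 10 B cell genes summed to 37.8 CPM in T cells against 31562 CPM in B cells, the 10 neutrophil genes to 15.3 CPM and the 8 platelet genes to 4.54 CPM. Whether RNA released by other cells had been removed from the values before deposit is not given in the sources used here. NK cell genes summed to 377 CPM in all T cells and to 1130 CPM in Tc3, against 26350 CPM in NK cells. The 10 monocyte genes summed to 364 CPM in all T cells and 850 CPM in Tc5, against 57215 CPM in monocytes; Ctss, Cst3 and Ccr2, which other blood cells also hold, made up most of it, and Lyz2 stood at 3.78 CPM in T cells against 44749 CPM in monocytes. Libraries held 219 to 1178 T cells and 135296 to 691981 T cell counts, with a median of 349 to 820 counts per T cell. Pairs of libraries shared at most 7 of all cell barcodes, and 4 barcodes of T cells were shared over all 55 pairs.

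Tc1 carried genes of CD8 and of naive T cells. Its leading genes, those with the highest ratio of the subtype to the remaining T cells, describe the authors' clusters and were not tested, since the clusters were made from the same genes. Cd8a and Cd8b1, the 2 chains of the CD8 coreceptor, averaged 678 ± 99.6 and 1805 ± 107 CPM in Tc1 (SD, n = 11 libraries), against 140 ± 32.7 and 401 ± 83.5 CPM in the remaining T cells. Ccr9, a homing receptor for the gut and thymus, averaged 93.3 ± 27.6 against 10.98 ± 8.78 CPM, and Dapl1, a marker of naive CD8 cells, 1102 ± 171 against 461 ± 114 CPM. Actn2, Fam241a, Cxxc5 and Rgcc completed the list of 8. Cd8a or Cd8b1 was detected in 71.5% of Tc1 cells (95% interval 69.7 to 73.3%, exact Clopper-Pearson, counting error only), and Cd4 in 0 of 2584. The naive or central memory genes summed to 7453 CPM in Tc1 and the effector or memory genes to 1843 CPM.

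Tc2 carried genes of CD4 and of naive T cells. Cd4, the coreceptor for class II molecules, averaged 242 ± 77.8 CPM in Tc2 against 22.4 ± 12.2 CPM in the remaining T cells (n = 11), and Cd40lg, the ligand through which helper cells activate B cells, 137 ± 28.6 against 18.4 ± 10.9 CPM. Igfbp4, which is high in naive CD4 cells, averaged 437 ± 109 against 92.1 ± 31.1 CPM, and Trat1, a T cell receptor adaptor, 459 ± 132 against 108 ± 39.1 CPM. Tgfbr3, Tesc, Ly6c1 and Myo6 were the others. Ly6c1 has a near-identical neighbour in Ly6c2, and reads of the pair may have been split. Cd4 transcript was sparse: it was detected in 12.2% of Tc2 cells (95% interval 10.9 to 13.5%), in 0.0491% of B cells and in 0 of 1549 NK cells. Cd8a or Cd8b1 was detected in 5.97% of Tc2 cells and in 0.387% of B cells. Of the lymph node homing genes, Ccr7 stood at 598 CPM in Tc2, 427 CPM in Tc1 and 143 CPM in Tc3, and the transcription factor gene Lef1 at 1485, 1194.5 and 507 CPM.

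**Figure D1:**
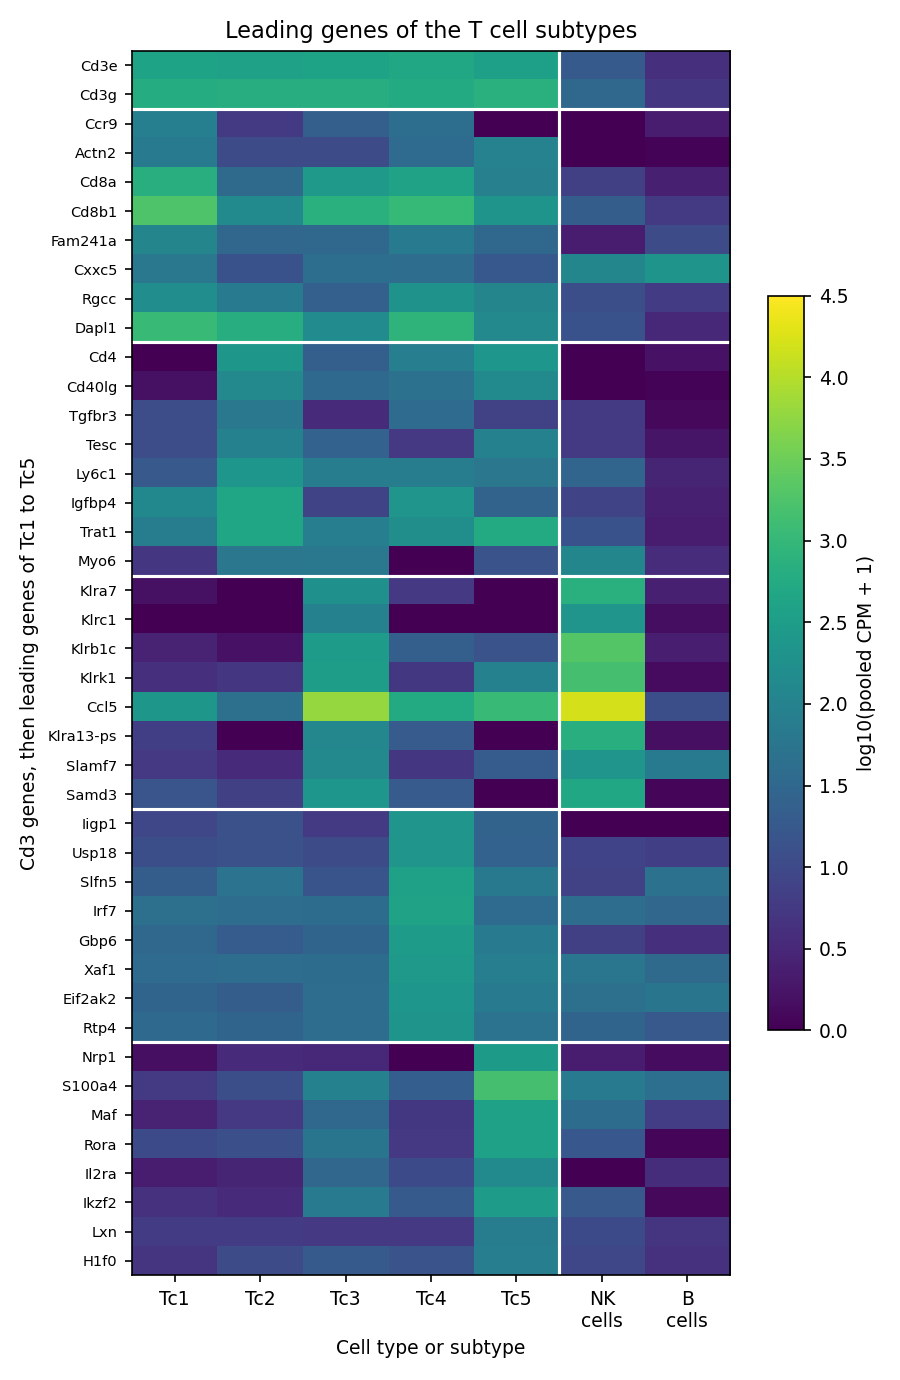
Pooled level of Cd3e, Cd3g and the 8 leading genes of each T cell subtype, as log10(CPM + 1), in the 5 subtypes and, right of the white line, in NK and B cells. The blocks of Tc3, Tc4 and Tc5 are brightest among T cells in their own subtype, several genes of the Tc2 block, such as Cd4 and Trat1, are as bright in Tc5, and the block of Tc3 is also bright in NK cells.

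Tc3 carried effector genes and genes of NK cell receptors. Ccl5, a chemokine stored by memory CD8 cells and NK cells, averaged 6205 ± 1523 CPM in Tc3 against 212 ± 96.0 CPM in the remaining T cells (n = 11), and it was detected in 73.3% of Tc3 cells against 0.458% of B cells. Klrk1, the gene of the activating receptor NKG2D, averaged 327 ± 148 against 6.11 ± 6.74 CPM, and Klrb1c, the gene of NK1.1, 266 ± 186 against 3.22 ± 6.15 CPM. Klra7, Klrc1, Klra13-ps, Slamf7 and Samd3 were the other leading genes. The Klra genes are a family of near-identical copies, and their counts are uncertain for that reason. All 12 effector or memory genes exceeded 50 CPM and summed to 12089 CPM. Ly6c2, a marker of memory CD8 cells, stood at 2045 CPM in Tc3, 592 CPM in Tc1 and 52.9 CPM in Tc2.

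Tc3 was a mixture of cells by the receptor and coreceptor genes detected in them. A gamma delta receptor gene was detected in 200 of 1208 Tc3 cells (16.6%, 95% interval 14.5 to 18.8%), against 3 of 2584 Tc1 cells, 0 of 2547 Tc2 cells and 0.775% of NK cells. Cd8a or Cd8b1 without a gamma delta gene or Cd4 was detected in 365 cells, and neither Cd4, Cd8 nor a gamma delta gene in 632 cells. The 365 cells with Cd8 held Ly6c2 at 2352 CPM and Klrb1c at 34.3 CPM. In the 200 gamma delta cells Ly6c2 stood at 1469 CPM, Klrb1c at 497 CPM and Cxcr6, a chemokine receptor of tissue-resident and innate-like T cells, at 571 CPM, compared with 53.2 CPM of Cxcr6 in the cells with Cd8. The 632 remaining cells lay nearer to the gamma delta cells in Klrb1c (470 CPM), Cxcr6 (380 CPM) and Ccr7. Ccr7 stood at 86.6 CPM in them, 82.0 CPM in the gamma delta cells and 234 CPM with Cd8. The 632 cells lay nearer to the cells with Cd8 in Ly6c2 (2024 CPM) and in S100a4 (65.8 CPM, against 59.1 CPM with Cd8 and 240.3 CPM in the gamma delta cells). They held Zbtb16, the transcription factor gene of innate-like T cells, at 49.6 CPM, against 66.3 CPM in the gamma delta cells, whereas it was listed at 0 in the cells with Cd8. Trdc, the delta chain constant gene that was not used in the split, stood at 978 CPM in the gamma delta cells, 21.8 CPM in the cells with Cd8 and 200 CPM in the rest. Trac, the alpha chain constant gene, stood at 1145, 1073 and 1316 CPM in the same order. The name gamma delta cells therefore stands for a detected gene, and the receptor that these cells carry was not tested. The sets have medians of 556, 713 and 441 counts per cell and were not thinned to one depth, so that absence of a receptor gene in a cell does not show that the cell lacked it.

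By library, the gamma delta cells of Tc3 numbered 41, 12, 0 and 0 of 172, 101, 38 and 57 cells in sham, 2, 2, 6 and 17 of 33, 45, 123 and 74 cells at stroke day 2, and 33, 25 and 62 of 252, 111 and 202 cells at stroke day 14. Both stroke groups and sham overlap, and 2 sham libraries have none. These zeros need care. Per library 2041 to 5716 of 16623 genes were at 0 in every cell, while 1 to 19 genes were found in exactly 1 cell and 530 to 597 in 5 cells. The step behind this pattern is not given in the sources used here; a gene at 0 in a library may have been present in a few cells, and no upper limit is given for it.

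Tc4 was marked by interferon-stimulated genes. Interferons are antiviral cytokines, and factors that they activate bind repeats of GAAA in promoters. Irf7, a transcription factor of this response, averaged 384 ± 195.3 CPM in Tc4 against 35.3 ± 16.9 CPM in the remaining T cells (n = 7 libraries with at least 20 Tc4 cells), and Usp18, which limits interferon signalling, 232 ± 125 against 10.6 ± 6.45 CPM. Iigp1, a GTPase against intracellular pathogens, averaged 273 ± 159 against 10.7 ± 5.39 CPM. Slfn5, Gbp6, Xaf1, Eif2ak2 (the antiviral kinase PKR) and Rtp4 completed the list, so that all 8 belong to the known interferon-stimulated genes. Ifit1, Ifit3 or Isg15 was detected in 43.5% of Tc4 cells (95% interval 38.0 to 49.3%) and in 1.122 to 1.99% of the cells of the other 4 subtypes and 1.24% of B cells. The subtype mixed both lineages: Cd8a or Cd8b1 was detected in 43.9% and Cd4 in 5.16% of its cells. The naive or central memory genes summed to 7364 CPM in Tc4, close to the 7453 CPM of Tc1.

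Among the leading genes with a promoter at hand, the interferon motif was found in 2 of 4 genes of Tc4. The 300 bases from 250 before to 50 after each start site were searched on both strands for GAAANNGAAA, whose reverse complement is TTTCNNTTTC. Promoters were at hand for 4 of the 8 leading genes of Tc4, and 2 held it (Slfn5 and Eif2ak2, not Irf7 and Xaf1). None of the 23 genes at hand of the 32 leading genes of the other subtypes held it. Since only 4.63% of the genes tested in T cells held it, this absence is not read as a difference. Of the interferon response list, 5 of the 9 genes at hand held it (Bst2, Ifit1, Ifit3, Ifitm3 and Isg15), compared with 3.44% of all 32851 promoters in the table and 4.63% of the genes tested in T cells. A match describes the letters in these windows and does not show a bound site. Stretches around the first match are shown for the 2 leading genes that held it and for 4 of the 5 list genes, to show where the motif lies; Ifitm3, at 3.38 CPM in Tc4, is left out. Capitals mark the matches, all run 5′ to 3′ on the strand of the gene, and the letters are those of RefSeq on GRCm38.p6.
Slfn5: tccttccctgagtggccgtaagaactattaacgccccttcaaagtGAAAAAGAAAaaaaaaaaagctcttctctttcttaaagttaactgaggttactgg
Eif2ak2: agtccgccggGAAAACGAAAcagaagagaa
Ifit1: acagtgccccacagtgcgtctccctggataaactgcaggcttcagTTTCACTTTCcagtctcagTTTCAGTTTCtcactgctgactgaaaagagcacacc
Ifit3: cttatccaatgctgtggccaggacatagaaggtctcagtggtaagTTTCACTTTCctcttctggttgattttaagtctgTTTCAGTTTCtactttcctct
Isg15: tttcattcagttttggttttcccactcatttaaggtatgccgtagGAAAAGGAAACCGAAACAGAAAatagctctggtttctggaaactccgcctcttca
Bst2: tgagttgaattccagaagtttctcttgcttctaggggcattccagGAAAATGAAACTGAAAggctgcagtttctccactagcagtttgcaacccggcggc

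The Slfn5 stretch is chr11:82951902-82952001 on the plus strand, and Ifit1 and Ifit3 lie on the same strand at chr19:34640740-34640839 and chr19:34583328-34583427. The Isg15 stretch is chr4:156200842-156200941 and that of Bst2 chr8:71537548-71537647, both on the minus strand. These 5 stretches end before the start site. The Eif2ak2 stretch, chr17:78882535-78882564 on the minus strand, begins its match 18 bases after the start site. The first match begins 155, 104, 156, 78 and 130 bases before the start site in Slfn5, Ifit1, Ifit3, Isg15 and Bst2. In Isg15 and Bst2 matches overlap into 1 longer run of capitals. Pooled over Tc4, Slfn5 stood at 380 CPM, Eif2ak2 at 235, Ifit1 at 285, Ifit3 at 319, Isg15 at 302 and Bst2, which tethers budding virus, at 426 CPM. In Tc1, for comparison, Ifit1 stood at 2.31, Ifit3 at 7.52, Isg15 at 6.78 and Bst2 at 113 CPM.

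Tc5 carried genes of effector, regulatory and gamma delta T cells. S100a4, a calcium-binding protein gene of effector and memory cells, averaged 1393 ± 723 CPM in Tc5 against 28.6 ± 8.01 CPM in the remaining T cells (n = 5 libraries with at least 20 Tc5 cells). Nrp1, a receptor found on regulatory T cells that mature in the thymus, averaged 247 ± 212 against 1.44 ± 1.34 CPM, Ikzf2, the gene of Helios, 312 ± 166 against 20.2 ± 5.36 CPM, and Il2ra, the interleukin-2 receptor alpha chain, 159 ± 59.5 against 9.32 ± 7.31 CPM. Maf and Rora, transcription factor genes of effector and interleukin-17 producing cells, averaged 377 ± 182 against 9.70 ± 5.13 and 337 ± 150 against 19.8 ± 8.46 CPM. Lxn and H1f0 were the others. The interferon response list was also high in Tc5, at 3060 CPM, of which Ifi27l2a made up 2286 CPM, whereas Ifit3 was listed at 0. S100a4 was detected in 47.4% of Tc5 cells (95% interval 41.4 to 53.5%) and in 1.62% of B cells.

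Tc5 could be split in the same way as Tc3. Foxp3, Il2ra, Ctla4 or Ikzf2, genes of regulatory T cells, were detected in 65 of 272 cells (23.9%, 95% interval 19.0 to 29.4%), against 6.04% of Tc3 (73 of 1208 cells), 0.968% of Tc4, 0.542% of Tc1, 0.432% of Tc2 and 0.371% of B cells. In 64 of them no gamma delta gene was detected; they held Maf at 493 CPM and Itgb1, an integrin chain, at 1174 CPM. Gamma delta genes, here with Cd163l1, 5830411N06Rik and Trdv4 added, were detected without a regulatory gene in 21 cells, which held S100a4 at 3962 CPM, Cxcr6 at 1740 CPM and Trdc at 951 CPM. Cxcr6 stood at 137 CPM in the 64 cells, where Trdc was listed at 0. Both kinds were detected in 1 cell and neither in 186 cells, in which S100a4 stood at 1067 CPM and Cd4 at 230 CPM. Foxp3, the master regulator of regulatory T cells, was above 0 in all T cells of sham replicate 1 (5.78 CPM) and stroke day 14 replicate 2 (13.0 CPM) alone, under the same limit on genes at 0. The Tc5 cells with a regulatory gene numbered 6, 2, 0 and 3 in sham, 2, 0, 0 and 6 at stroke day 2, and 13, 17 and 16 at stroke day 14. All Tc5 cells numbered 34, 9, 3 and 24 in sham, 6, 4, 15 and 19 at stroke day 2 and 73, 33 and 52 at day 14. Libraries held unequal numbers of T cells, and most cells with a regulatory gene lay outside Tc5, 73 of them in Tc3. In the sets of Tc3 Foxp3 was listed at 0 and Ctla4 at 0 to 5.72 CPM, against 135 and 449 CPM in the 64 cells of Tc5. Detection of such a gene therefore does not show that a cell is a regulatory T cell. Counted over all subtypes, the cells with a regulatory gene made up 3.47, 1.66, 1.83 and 1.75% of T cells in sham, 1.11, 0.0, 0.602 and 2.69% at stroke day 2 and 2.12, 5.44 and 3.26% at day 14, which overlaps both other groups. As a share of Tc5 (17.8, 51.5 and 30.8% at day 14) the day 14 libraries overlap both sham, which reached 22.2%, and stroke day 2, which reached 33.3%; these shares were not tested.

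**Figure D2:**
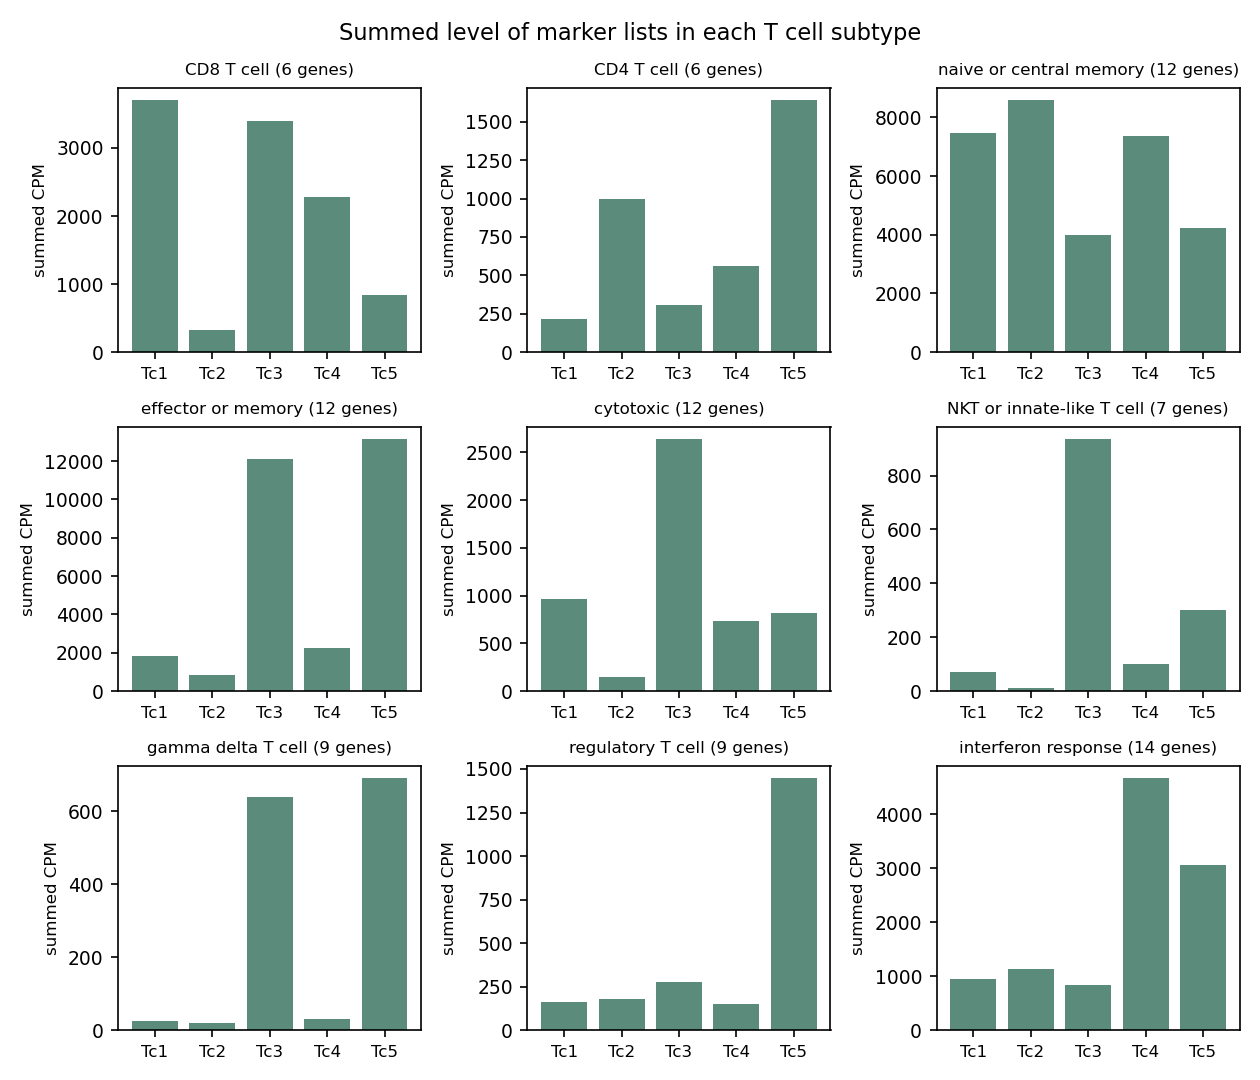
Summed pooled CPM of 9 marker lists in Tc1 to Tc5, with the number of genes measured of each list in the panel title and each axis starting at 0. The CD8 bar is highest in Tc1 and Tc3, the CD4 bar in Tc5 and Tc2, the interferon bar in Tc4 and the regulatory bar in Tc5. The CD8 list summed to 7117 CPM in NK cells, which are not shown, so that its bar does not measure the CD8 coreceptor alone.

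The T cell share of blood passed no test. T cells made up 14.1, 11.4, 6.97 and 16.4% of blood cells in the sham libraries, 6.30, 12.8, 17.2 and 8.87% at stroke day 2 and 18.9, 13.7 and 19.4% at stroke day 14. The groups overlap in every comparison. The means were 12.2 ± 4.04, 11.3 ± 4.77 and 17.3 ± 3.13%. None of the 3 comparisons passed the test (edgeR's quasi-likelihood test on cell numbers, Benjamini-Hochberg adjusted over 9 blood cell types): stroke day 2 against sham gave a log2 difference of -0.11 ± 0.40 (SE, adjusted p = 0.927), stroke day 14 against sham 0.50 ± 0.43 (adjusted p = 0.576) and stroke day 14 against day 2 0.62 ± 0.43 (adjusted p = 0.322). Of the 9 types, 0.0%, 11.1% and 22.2% were called in these comparisons. The exact two-sided permutation tests gave p = 0.800, 0.171 and 0.114, of which the smallest possible was 0.0286 for 4 against 4 libraries and 0.0571 for 3 against 4. The direction depended on the total used. As a share of cells other than neutrophils and of lymphocytes, stroke day 2 against sham gave 0.35 and 0.39. Stroke day 14 against day 2 then gave -0.0675 and -0.0726, and none of these was called.

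Within the T cells, Tc5 took a larger share at day 14 after stroke. It made up 3.80, 1.66, 1.37 and 4.19% of T cells in sham, 1.67, 1.32, 1.81 and 3.93% at stroke day 2 and 6.20, 4.85 and 6.05% at stroke day 14. All 3 day 14 libraries exceed all 8 others. The mean rose from 2.18 ± 1.18% at stroke day 2 to 5.70 ± 0.736% at day 14, a log2 difference of 1.36 ± 0.33 (edgeR, adjusted p = 0.00101 over the 5 subtypes). Against the sham mean of 2.76 ± 1.44% the log2 difference was 0.91 ± 0.31 (adjusted p = 0.0251). Of the 5 subtypes, 40.0% were called between day 14 and day 2 after stroke, 20.0% between day 14 and sham and 0.0% between stroke day 2 and sham. The exact permutation test gave p = 0.0571 for both day 14 comparisons, the smallest that 3 against 4 libraries allow, and adjusted values of 0.0952 and 0.286. The call against sham was lost without any 1 of sham replicates 2 and 3, stroke day 2 replicate 3 and day 14 replicates 1 and 3 (log2 difference 0.71 to 0.91, adjusted p 0.0516 to 0.188), as a share of all blood cells (1.39, adjusted p = 0.0566) and with the first digits of the library code as a term (0.88, adjusted p = 0.0503). Median counts per T cell were 474 to 687 in the day 14 libraries, 399 to 660 in sham and 349 to 820 at stroke day 2, and the part of depth in the subtype names was not tested.

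Tc3 was also larger at day 14 than at day 2 after stroke. It made up 19.2, 18.7, 17.4 and 9.95% of T cells in sham, 9.19, 14.9, 14.8 and 15.3% at stroke day 2 and 21.4, 16.3 and 23.5% at day 14. The 2 stroke groups do not overlap, but sham overlaps both. The mean rose from 13.5 ± 2.91% to 20.4 ± 3.68% (log2 difference 0.58 ± 0.23, edgeR, adjusted p = 0.0387), whereas day 14 against sham gave 0.33 ± 0.23 (adjusted p = 0.256). The call was lost without stroke day 2 replicate 1, 2 or 3 or day 14 replicate 1 or 3 (0.45 to 0.64, adjusted p 0.0507 to 0.127), and among cells with at least 800 counts (0.40, adjusted p = 0.372). Other settings that ended it were a term for the replicate number (replicate block, 0.50, edgeR, adjusted p = 0.109) and a term for the first digits of the library code (0.59, adjusted p = 0.0561). The exact permutation test gave an adjusted p of 0.0952. With 3 against 4 libraries its smallest possible p was 0.0571, so that it could not have kept the call. NK cells, which share the leading genes of Tc3, were also more frequent at day 14, with 4.96 ± 0.736% of blood against 1.90 ± 0.671% at stroke day 2 (log2 difference 1.39 ± 0.35, edgeR, adjusted p = 0.0124 over 9 types). Whether NK cells entered Tc3 was not tested; Cd3e stood at 399 CPM in Tc3, as in the other subtypes.

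Tc1, Tc2 and Tc4 passed no test over all 11 libraries with all T cells as the total. Tc4 made up 3.02, 4.25, 2.28 and 6.28% of T cells in sham, 4.18, 2.64, 4.22 and 2.48% at stroke day 2 and 5.603, 6.91 and 4.19% at day 14. The groups of Tc4 overlap, with sham replicate 4 the second highest of all. The log2 difference of stroke day 14 and day 2 was 0.66 ± 0.30 (edgeR, adjusted p = 0.0579), that of day 14 and sham 0.42 ± 0.29 (adjusted p = 0.256), and without sham replicate 4 both passed (0.66 and 0.73, adjusted p = 0.0368 and 0.0487). The former also passed among cells with at least 800 counts (1.83, edgeR, adjusted p = 0.0142) and as a share of all blood cells (1.27, adjusted p = 0.0346). It passed with only the 2 compared groups (0.66, edgeR, adjusted p = 0.0419) but not with the replicate block (0.71, adjusted p = 0.0911). Tc1 averaged 37.1 ± 4.31% in sham, 42.4 ± 3.02% at stroke day 2 and 34.3 ± 7.35% at day 14. Its day 14 libraries (25.9 to 39.6%) lay below those of stroke day 2 (40.3 to 46.9%) without overlap (log2 difference -0.31 ± 0.20, edgeR, adjusted p = 0.163). The exact permutation test gave p = 0.0571, the smallest that 3 against 4 libraries allow. In that comparison 3 of the 5 subtypes did not overlap. Tc2 averaged 39.9 ± 2.81, 38.5 ± 5.09 and 34.0 ± 5.71%. The shares sum to 100% of T cells and are not independent of each other.

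**Figure D3:**
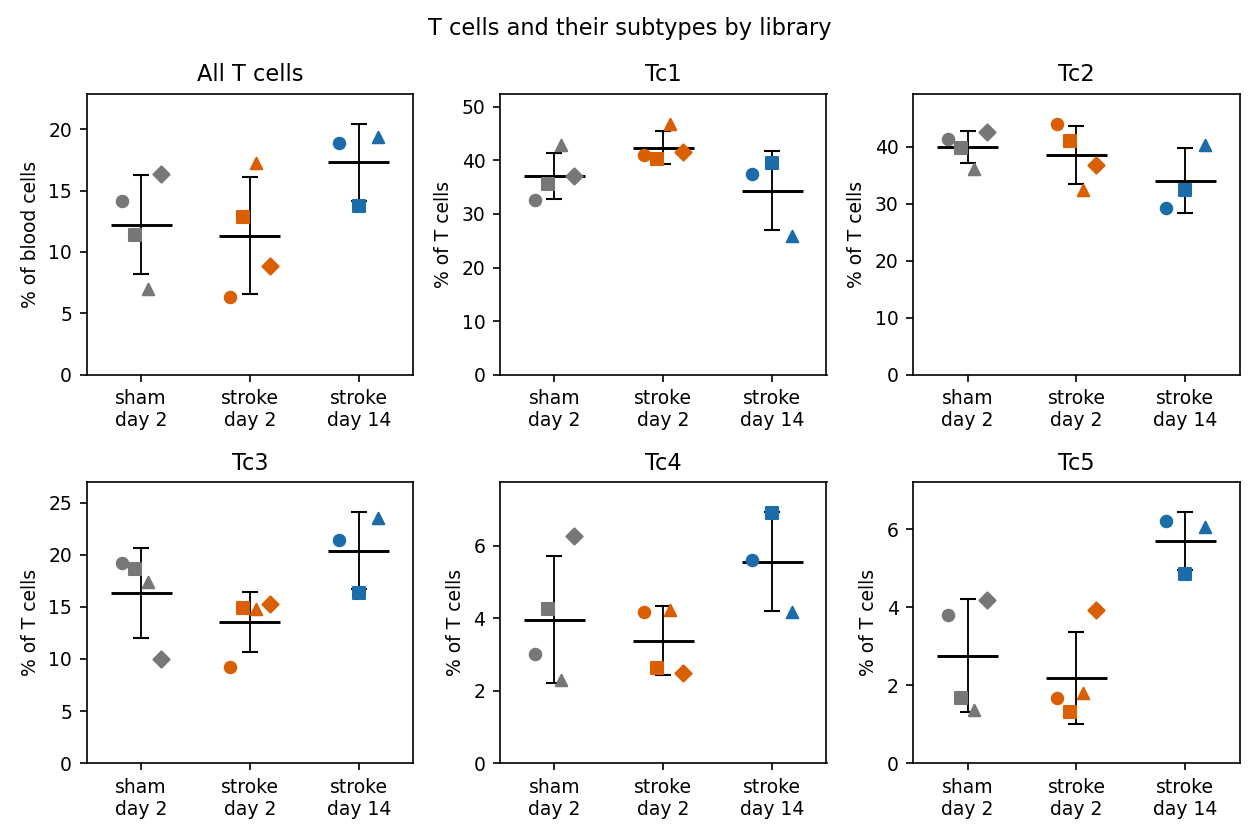
Share of T cells among blood cells (upper left) and of each subtype among T cells, by library, with a point per library (circle, square, triangle and diamond for replicates 1 to 4), the mean as a line and the SD as a bar. The 3 day 14 points of Tc5 lie between 4.85 and 6.20%, above all 8 others.

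Expression in T cells was compared on counts summed per library, over all T cells and within each subtype. No gene was called at an adjusted p under 0.05 (edgeR's quasi-likelihood test, Benjamini-Hochberg adjusted): the share called was 0.0% of the 5731 genes tested in all T cells in each of the 3 comparisons, and DESeq2 also called 0. At an unadjusted p under 0.05 there were 138 genes (2.41%) for stroke day 2 against sham, 102 (1.78%) for day 14 against sham and 162 (2.83%) for day 14 against day 2. A threshold of 0.05 would give a larger share even if no gene differed, so that these counts are not an excess. Within subtypes 0 of 3051 genes in Tc1, 2805 in Tc2 and 1058 in Tc3 were called in any comparison, and 0 of 768 genes in Tc4 and 396 in Tc5 in the comparison of day 14 with sham, the only one with at least 2 libraries of 20 cells in both groups. The genes and lists that follow are therefore given by their values, and no difference among them passed the test; in all T cells every adjusted p was at least 0.99. Levels over all T cells also move with the mixture of subtypes.

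Effector and memory genes had higher levels at day 14. All 12 genes of the list lay above sham at day 14, with a median log2 difference of 0.47, and above stroke day 2, with a median of 0.57, while the median over all genes tested was -0.01 in both. At stroke day 2, 5 of 12 lay above sham and the median was -0.07. None of the 12 was called, and the 2 day 14 comparisons share their day 14 libraries. Monocyte genes in the same T cell sums lay in the same direction for 3 of the 4 tested of 10 (Ccr2, Ctss and Ms4a6c, not Cst3), with a median of 0.41 against sham and 0.28 against stroke day 2. The 10 summed to 323 to 378 CPM in sham, 303 to 394 CPM at stroke day 2 and 361 to 424 CPM at day 14, with overlap. NK cell genes lay in the same direction for all 7 tested of 10 against sham (median 0.44) and for 6 of 7 against stroke day 2 (median 0.34), and the 10 summed to 216 to 435 CPM in sham, 249 to 408 CPM at stroke day 2 and 388 to 528 CPM at day 14, with overlap. The 12 effector or memory genes summed to 25370 CPM in NK cells, 8382 CPM in monocytes and 3836 CPM in T cells. Among the subtypes they summed to 12089 CPM in Tc3 and 13142 CPM in Tc5, against 1843, 869 and 2236 CPM in Tc1, Tc2 and Tc4. The Tc5 share was called higher at day 14 than in both other groups, and that of Tc3 higher than at stroke day 2. The part of this mixture in the levels of the list was not tested. Monocytes hold S100a4 at 2570 and Ly6c2 at 1253 CPM, and NK cells hold Lgals1 at 2447 CPM; the part of NK cell and monocyte RNA in this list was not tested. Lgals1, the gene of galectin-1, stood at 241, 134, 209 and 173 CPM in sham, 256, 169, 197 and 173 CPM at stroke day 2 and 394, 371 and 347 CPM at stroke day 14. All day 14 libraries exceed all others, and the log2 difference from sham was 0.94 ± 0.23 (SE) and from stroke day 2 0.85 ± 0.23. S100a10, which with annexin A2 forms a plasma membrane complex, stood at 425, 365, 519 and 562.5 CPM in sham, 435, 325, 464 and 495 CPM at stroke day 2 and 679, 633.5 and 657 CPM at day 14, again with no overlap. S100a4 stood at 74.8, 18.6, 55.2 and 38.3 CPM in sham and at 168, 75.1 and 92.6 CPM at day 14, whose lowest library lies at the level of the highest sham library. Ly6c2 stood at 478, 627, 682 and 580.5 CPM and at 997, 735 and 706.5 CPM. The share of genes whose groups did not overlap was 3.44% over all genes in the comparison of day 14 with sham and 4.47% in that with stroke day 2, and in this list it was 4 of 12 and 3 of 12. Within subtypes fewer of the 12 genes were tested: 5 of 7 genes tested lay above sham at day 14 in Tc1 (median 0.11), 4 of 5 in Tc2 (median 0.22), 7 of 10 in Tc3 (median 0.20), 4 of 4 in Tc4 (median 0.26) and 5 of 8 in Tc5 (median 0.43).

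Lgals1 was followed within the subtypes because it is high in Tc5 and Tc3. Its level in Tc5 was 2067 and 981 CPM in the 2 sham libraries tested, and 3688, 3048 and 2438 CPM in those of day 14, with a log2 difference of 0.97 ± 0.29 (edgeR, adjusted p = 0.320). In Tc3 the log2 difference of day 14 and sham was 0.64 ± 0.30, in Tc1 0.37 ± 0.31 and in Tc2 0.22 ± 0.27. Klf2, the transcription factor gene that keeps naive T cells in circulation, stood in Tc5 at 1209 and 1211 CPM in sham and at 496, 703 and 497 CPM at day 14 (log2 difference -1.06 ± 0.35, adjusted p = 0.320). The Tc5 comparison rests on 3 against 2 libraries, and 24.7% of its genes did not overlap between groups. In Tc4 Klf2 gave -0.94 ± 0.33 and Gbp6, an interferon-induced GTPase gene, 1.83 ± 0.65 (edgeR, adjusted p = 0.991 for both).

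Cytotoxic and NK cell genes followed at lower levels. Of the 12 cytotoxic genes 5 were tested, and all 5 lay above sham at day 14 (median 0.56) and 4 of 5 at stroke day 2 (median 0.45). The 12 genes summed to 2637 CPM in Tc3 and to 151 to 960 CPM in the other subtypes, and the part of the mixture of subtypes was not tested. Gzma, the gene of granzyme A, stood at 8.63, 23.8, 19.1 and 5.55 CPM in sham, 0, 14.8, 60.3 and 44.5 CPM at stroke day 2 and 94.5, 57.6 and 59.2 CPM at stroke day 14. Day 14 lies above sham without overlap (log2 difference 2.51 ± 0.63), and stroke day 2 overlaps both. NK cells held Gzma at 11593 CPM and made up 4.96 ± 0.736% of blood at day 14 and 2.43 ± 0.531% in sham (edgeR, adjusted p = 0.0674); the part of NK cell RNA in the Gzma level of T cells was not tested. Within subtypes the list was mixed at day 14 against sham, with 0 of 2 genes tested higher in Tc1 (median -0.16), 3 of 4 in Tc3 (median 0.20) and 1 of 2 in Tc4 (median 0.33). In Tc3 1 of 4 was higher at day 14 than at day 2 (median -0.04). Within Tc3 Gzma gave 30.8, 77.9, 0 and 48.3 CPM in sham and 315, 263 and 186.5 CPM at day 14. Of the NK cell list 7 genes were tested and all 7 lay above sham at day 14 (median 0.44), while Klrb1c gave a log2 difference of 0.08 ± 0.69. Gzma and Prf1 belong to both the cytotoxic and the NK cell list, so that the counts of these lists are not independent. Prf1, the gene of perforin, stood at 46.0, 27.8, 38.3 and 33.3 CPM in sham and at 64.3, 41.5 and 68.9 CPM at day 14 (0.63 ± 0.27).

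Genes induced by glucocorticoids, the adrenal stress hormones, had higher levels at stroke day 2. All 6 tested of the list of 10 lay above sham (median log2 difference 0.49), and none of the 6 lay above stroke day 2 at day 14 (median -0.76); none was called. Fkbp5, a co-chaperone of the glucocorticoid receptor, stood at 24.7, 62.6, 24.5 and 13.1 CPM in sham, 51.1, 148, 38.6 and 54.4 CPM at stroke day 2 and 23.7, 27.7 and 20.5 CPM at day 14. The 2 stroke groups do not overlap (-1.42 ± 0.45), while sham and stroke day 2 do (1.14 ± 0.44), with stroke day 2 replicate 2 the highest. Tsc22d3, the gene of the glucocorticoid-induced leucine zipper, stood at 327, 240, 230 and 222 CPM in sham, 343, 439, 255 and 333.5 CPM at stroke day 2 and 285, 201 and 202 CPM at day 14. Sgk1, a kinase gene, stood at 38.3 to 42.9 CPM in sham and 44.8 to 63.6 CPM at stroke day 2, with no overlap (0.51 ± 0.27). Il7r, the interleukin-7 receptor chain that sustains naive cells and is itself raised by glucocorticoids, gave 0.45 ± 0.18. The same direction was found within subtypes: 4 of 4 genes tested lay above sham in Tc1 (median 0.32) and Tc2 (median 0.58) and 3 of 3 in Tc3 (median 0.63), where the median over all genes was 0.00 to 0.02. These subtypes hold most T cells of the same libraries, so that their counts and those over all T cells are not independent. The comparisons with sham and with day 14 also share the stroke day 2 libraries.

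Immediate early genes, which respond within minutes to stimulation or to handling, were uneven at stroke day 2. Of 8 tested genes 5 lay above sham (median 0.26), and 2 of 8 lay above stroke day 2 at day 14 (median -0.21). Jun stood at 41.1, 12.9, 11.7 and 6.51 CPM in sham, 23.5, 317, 244 and 13.9 CPM at stroke day 2 and 43.3, 4.66 and 10.2 CPM at day 14. Only replicates 2 and 3 of stroke day 2 were high, and the groups overlap. Junb stood at 225, 143, 144 and 95.7 CPM in sham, 231, 472, 249 and 112 CPM at stroke day 2 and 110, 58.0 and 74.8 CPM at day 14, where the 2 stroke groups do not overlap (log2 difference -1.66 ± 0.39). The same 2 libraries had the lowest median counts per T cell of their group (399 and 349, against 820 and 771); the part of depth in these genes was not tested. Jund and Ier2 of the same list gave 0.36 ± 0.29 and 0.17 ± 0.25 at stroke day 2 against sham.

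Interferon response genes over all T cells lay higher at day 14. Of 8 tested genes 7 lay above sham (median 0.34) and 7 above stroke day 2 (median 0.47), and 3 of 8 lay above sham at stroke day 2 (median -0.03). Monocytes held this list at 5466 CPM, against 1256 CPM in T cells. Of 4 monocyte genes tested in the same T cell sums, 3 lay above sham at day 14 (median 0.41) and 3 above stroke day 2 (median 0.28). The part of monocyte RNA in these levels was not tested. Bst2 stood at 96.7, 90.7, 120 and 75.2 CPM in sham, 169.5, 140, 84.2 and 94.1 CPM at stroke day 2 and 142, 159 and 150.5 CPM at day 14, above sham without overlap (0.66 ± 0.27). Tc4, the subtype with the highest sum of this list (4666 CPM), also had its highest mean share at day 14, which did not pass the test. Tc5, whose share was called higher at day 14, held the list at 3060 CPM, mostly as Ifi27l2a. The part of the mixture of subtypes in these levels was not tested. Within Tc4, 5 of 10 genes tested lay above sham at day 14 (median -0.01), and in sham replicate 2 Ifit1, Ifit3 and Isg15 were at 0 in its 23 Tc4 cells.

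**Figure D4:**
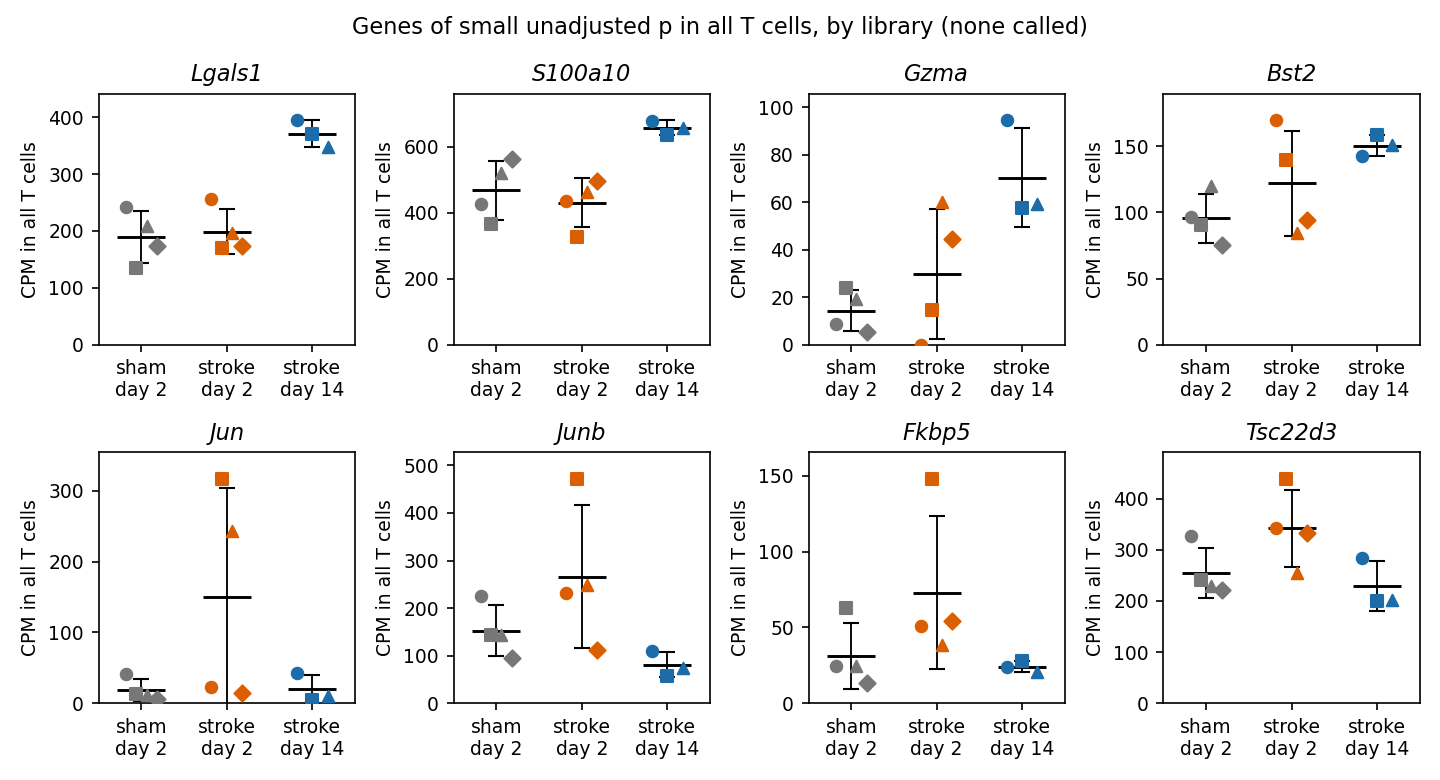
Level in all T cells (CPM) of 8 genes with a small unadjusted p in at least 1 comparison, by library, with a point per library, the mean as a line and the SD as a bar; none was called. Lgals1 and S100a10 at day 14 lie above all other libraries, and Jun is high in only 2 of the 4 libraries of stroke day 2.

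Lists of gamma delta, innate-like and regulatory T cells, which were high in Tc3 or Tc5, are given next, and none of their genes was called. The Tc5 share was called higher at day 14 than in both other groups, and that of Tc3 higher than at stroke day 2. The part of the mixture of subtypes in the levels of these lists was not tested. Of the gamma delta list 3 of 13 genes were tested, and all 3 lay above sham at day 14 (median 1.13); Trdc stood at 45.9, 115, 19.1 and 44.4 CPM in sham and at 111, 70.2 and 58.8 CPM at day 14, with overlap. The 4 genes tested of the innate-like list gave a median of 0.53 at day 14 against sham and -0.59 at stroke day 2 against sham, and Xcl1, a chemokine gene, stood at 2.99, 0, 32.8 and 7.44 CPM at stroke day 2 and at 32.3, 30.2 and 64.45 CPM at day 14. NK cells hold this list at 2987 CPM, against 221 CPM in T cells, and Xcl1 at 359 CPM. The NK cell list, which shares Klrb1c with the innate-like list, gave medians of 0.44 at day 14 against sham and 0.31 at stroke day 2 against sham in the same T cell sums. The part of NK cell RNA in these levels was not tested. The regulatory list summed to 1448 CPM in Tc5 and to 153 to 277 CPM in the other subtypes. Of this list, 5 genes were tested and all 5 lay above sham at day 14 (median 0.49), while 3 of 5 lay above sham at stroke day 2 (median 0.19) and 3 of 5 above stroke day 2 at day 14 (median 0.34). Ikzf2, named for its small unadjusted p between the 2 stroke groups, lay below sham at stroke day 2, unlike the median of the list. It stood at 21.0, 26.5, 44.2 and 22.0 CPM in sham, 2.69, 0, 16.9 and 14.8 CPM at stroke day 2 and 28.7, 44.4 and 50.3 CPM at day 14. Its levels at stroke day 2 lie below both other groups without overlap, which between the 2 stroke groups was a condition of naming it. The log2 difference of day 14 and day 2 was 1.87 ± 0.51. The stroke day 2 libraries held 135296 to 402095 T cell counts, so that these levels rest on few counts. In replicate 2, where Ikzf2 was at 0, 5716 of 16623 genes were at 0 in every cell, and the limit on such zeros applies.

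Naive, migration and lineage genes had list medians within 0.15 of zero on the log2 scale. The 12 naive or central memory genes gave medians of 0.00, -0.04 and -0.10 in the comparisons of stroke day 2 with sham, day 14 with sham and day 14 with day 2. Actn1, a cytoskeletal gene of naive cells, stood at 202, 199, 157.5 and 176 CPM in sham and at 140, 87.3, 121 and 153 CPM at stroke day 2, without overlap (-0.48 ± 0.20 in the fit over all T cells and -0.80 ± 0.27 in Tc1). The 14 genes tested of the migration and adhesion list gave medians of -0.10, 0.09 and 0.15, with 10 of 14 higher at day 14 than at day 2. Of these, Ccr2, a receptor that draws leukocytes to inflamed tissue, stood at 59.3, 52.4, 44.2 and 13.1 CPM in sham and at 70.8, 62.2 and 126 CPM at day 14 (0.99 ± 0.34). The 16 T cell lineage genes gave medians of -0.08, 0.02 and 0.09, and none was called. At day 14 against day 2, 12 of the 16 were higher, and 4 of 16 did not overlap between groups, beside 4.47% of all genes. The 3 tested proliferation genes gave medians of 0.19, 0.07 and -0.11, and the 3 tested activation genes -0.05, -0.10 and -0.19. The CD8 list gave 0.09, 0.15 and 0.12 over 6 genes, and the CD4 list -0.08, -0.15 and 0.05 over 5 genes.

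Among the genes of smallest unadjusted p over all T cells whose libraries did not overlap, several had no list. For stroke day 2 against sham, where 1.57% of genes did not overlap, these were Rabl6, Nmt2, Qdpr, Snhg9 and Mcm2 with higher levels and Zfp738, Wdr55, Ttc7, Phf14 and Cab39l with lower levels. Nmt2, an N-myristoyltransferase gene, stood at 14.0, 15.5, 6.31 and 19.2 CPM in sham and at 38.5, 73.0, 26.8 and 31.9 CPM at stroke day 2 (log2 difference 1.41 ± 0.42). Mcm2, a subunit of the replicative helicase, stood at 21.5, 35.3, 12.6 and 24.7 CPM in sham and at 41.8, 44.1, 62.8 and 37.0 CPM at stroke day 2 (0.98 ± 0.32). For day 14 against sham they were Lgals1, Tagln2, Smap1, Mrpl14 and Ccdc82 with higher and Orc2, Fem1c, Stat6, Pde4d and Ppip5k2 with lower levels. Tagln2, an actin-binding protein gene that stabilises the contact of T cells with their targets, stood at 252, 229, 255 and 216 CPM in sham and at 395, 358 and 368 CPM at day 14 (0.65 ± 0.18). For day 14 against day 2 they included Zfp738, Ikzf2, Lgals1 and Mrpl21 with higher and Junb, Ppp1r21, Dusp10, Tnfaip3 and Orc2 with lower levels. Tnfaip3, the gene of A20 and a brake on NF-kappa-B, stood at 29.6, 58.5, 45.05 and 29.4 CPM at stroke day 2 and at 12.4, 1.84 and 18.5 CPM at day 14 (-1.78 ± 0.51).

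Within subtypes the same rule named genes of adjusted p above 0.99 in Tc1, Tc2 and Tc4. In Tc1, Smad7, an inhibitor of TGF-beta signalling, stood at 124, 93.7, 113 and 69.9 CPM in sham, 116, 107, 137 and 57.0 CPM at stroke day 2 and 37.6, 56.3 and 38.5 CPM at day 14 (log2 difference of day 14 and sham -1.16 ± 0.35). In Tc2, Zap70, the kinase that starts T cell receptor signalling, stood at 97.0, 53.1, 63.4 and 87.6 CPM in sham and at 143, 174, 124.5 and 177 CPM at stroke day 2 (0.94 ± 0.30). Actg1, a cytoplasmic actin gene, stood in Tc2 at 139, 268, 138 and 204 CPM in sham, 81.1, 78.9, 105 and 101 CPM at stroke day 2 and 156, 172 and 215 CPM at day 14 (-0.96 ± 0.29 for stroke day 2 against sham). In Tc3, Sept11, a septin gene, stood at 87.2, 53.0, 60.6 and 167 CPM in sham and at 219, 252 and 445 CPM at day 14 (1.66 ± 0.42, edgeR, adjusted p = 0.640). The cold-inducible gene Rbm3 stood in Tc3 at 281, 213, 244 and 287.5 CPM in sham, 110, 42.3, 72.5 and 146 CPM at stroke day 2 and 159, 69.0 and 72.2 CPM at day 14 (-1.37 ± 0.43 for day 14 against sham). In Tc5, Hmgb2, a chromatin protein gene of dividing cells, stood at 319 and 417 CPM in sham and at 569, 935 and 1371 CPM at day 14 (1.505 ± 0.47, edgeR, adjusted p = 0.320).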

How the data were processed

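Only the 11 blood libraries were used. The deposited tables hold expected counts per gene and cell, many of them not whole numbers, and per-cell counts of genes and a percent of mitochondrial counts in the authors' metadata. The submitters' processing notes name mm10 and Seurat; the aligner, the counting tool, any removal of free RNA and the cell filters are not given in the sources used here. Subtypes were taken from the deposited annotation. Every column of values was used under its own label, and 0 columns were left out.

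Counts were summed per library and class, rounded to whole numbers, scaled to CPM (each library to the same total) for description, and tested with edgeR 4.0.16 (quasi-likelihood, TMM, its default filter on low counts) in R 4.3.3 over the 3 groups, in libraries with at least 20 cells of the class. DESeq2 1.42.0 was an alternative. Cell numbers were tested with the same quasi-likelihood test for types of at least 50 cells, without TMM or the filter on low counts. The library size was all blood cells of a library for blood cell types and its T cells for the subtypes. The threshold was an adjusted p of 0.05. A gene was detected in a cell at a value of at least 0.5. Blood libraries held 966914 to 5232662 counts in 2360 to 6328 cells, and intervals cover counting error only. Replicates differed by more than sampling noise (chi-square per degree of freedom 1.501 to 6.14). Scrublet marked 0.0403 to 0.285% of cells per library as doublets, too few to have worked, so that doublets were not removed. The scripts were tested on simulated data for day 14 against sham, with a set spread between libraries that was not fitted to these data. Of 2-fold changes 38.9% were called in all T cells, 35.9% in Tc1 and 64% in Tc3, and of 4-fold changes 98 to 100%. The absence of called genes therefore does not show that no gene changed 2-fold.

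Leading genes were the 8 of highest ratio per subtype (1 CPM added) with at least 50 CPM, higher in every library with 20 cells of it. Per comparison the 5 genes of smallest unadjusted p in each direction were named, with at least 20 CPM and libraries that do not overlap. Both rules leave out predicted, mitochondrial, ribosomal, haemoglobin and immunoglobulin genes and those that another blood type holds at over 10 times the level. The cells, lists and rules were chosen with earlier results of these data known. Same-numbered replicates were not treated as paired. A gene that these rules name is not reported here.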

Additional observations from a re-analysis of the deposited data

Results flagged for a closer look

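Among 42 groups of 4 libraries checked, 2 held a library far from the others, where chance gives about 1 in 20. The Tc3 share of T cells at stroke day 2 was 9.19% in replicate 1, and 14.8 to 15.3% in the other 3 libraries. The summed migration and adhesion genes in all T cells of sham reached 3519 CPM in 1 library, and 2980 to 3044 CPM in the other 3.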

How the results depend on the processing

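No direction of a share reported as called turned, and the cause of each change below was not tested. With the T cell share taken of blood cells other than neutrophils or of lymphocytes, stroke day 2 minus sham turned from -0.11 to 0.35 and 0.39 (log2), and day 14 minus day 2 from 0.62 to -0.0675 and -0.0726. Leaving out each library gave -0.388 to 0.0880 for the former. Among cells with at least 800 counts, stroke day 2 minus sham turned to -0.0127 in Tc1, 0.0732 in Tc2 and 0.0834 in Tc3, the Tc3 difference of day 14 and day 2 was no longer called (0.40), that of Tc4 was (1.83), and Tc5 could not be tested with under 50 cells. As shares of all blood cells, day 14 minus sham turned to 0.40 in Tc1 and 0.26 in Tc2 and day 14 minus day 2 to 0.26 and 0.49, Tc5 at day 14 against sham lost its call (1.39) and Tc4 at day 14 against day 2 gained one (1.27), as it did with only the 2 compared groups (0.66). The exact permutation test called no subtype (Tc5 0.91 and 1.36, Tc3 0.58, 0 subtypes in both). With 3 against 4 libraries its smallest possible p was 0.0571, so that it could not have called any in the day 14 comparisons. With the first digits of the library code as a term, chosen after seeing the data, Tc5 at day 14 against sham (0.88) and Tc3 at day 14 against day 2 (0.59) lost their calls.

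Leaving out 1 library at a time gave, for stroke day 2 minus sham, -0.141 to 0.0136 in Tc2 and -0.420 to 0.0715 in Tc4. For day 14 minus sham it gave -0.205 to 0.0731 in Tc1, 0.24 to 0.73 in Tc4 and 0.71 to 1.11 in Tc5. For day 14 minus day 2 it gave 0.45 to 0.71 in Tc3, 0.50 to 0.84 in Tc4 and 1.21 to 1.78 in Tc5. Called subtypes then numbered 0 to 2 against sham (1 in the report) and 1 to 3 against day 2 (2 in the report). With 800 counts, the library code or the share of blood they numbered 0 against sham, and with 800 counts or the library code 1 against day 2.

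The labels do not say that a replicate number marks a shared batch or day. Same-numbered libraries correlated at -0.44 to 0.49, 6 of 10 pairs over 0.1 (differently numbered ones 10 of 30 pairs), so that not every pair was over 0.1 and the number was not taken as a pairing; shared structure in some pairs is not excluded. With the replicate block Tc5 gave 1.26 against sham (edgeR, adjusted p = 0.00450) and 1.67 against day 2 (adjusted p = 0.000377), Tc3 at day 14 against day 2 gave 0.50 (adjusted p = 0.109), 1 subtype was called against day 2, and 1 gene was called in Tc2 between day 14 and day 2.

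Genes called numbered 0 in the report. With no filter on low counts they numbered 5, 4 and 3 in all T cells (stroke day 2 against sham, day 14 against sham, day 14 against day 2), 3 and 1 in Tc1 in the first 2 of these, 1 and 3 in Tc2 in the first and last, and 1 in Tc3 at day 14 against sham. With counts rounded up per cell they numbered 1 in all T cells, 1 in Tc1 and 2 in Tc2 at day 14 against day 2. In Tc5 leaving out a library gave 0 to 2. Of 3250 alternative values of 172 named results 0 reversed and 11 became called, among them Gzma and Jun in all T cells with no filter and Lgals1 in Tc5 without sham replicate 1 (adjusted p = 0.0212). No alternative with a technical batch was run, since no label names one.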

Other observations

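The T cell receptor beta chain is assembled from V gene segments, and 17 of these were counted. Pooled over the 11 libraries, Trbv12-2 made up 55 of 293 V beta counts in Tc1 (18.8%, 95% interval 14.5 to 23.7%, exact Clopper-Pearson) and 27 of 320 in Tc2 (8.44%, 5.63 to 12.0%). Trbv2 lay the other way, with 24 counts in Tc1 (8.19%, 5.32 to 11.9%) and 59 in Tc2 (18.4%, 14.3 to 23.1%). Trbv13-2 made up 30 of 146 counts in Tc3 (20.5%, 14.3 to 28.0%), 7.85% in Tc1 and 11.9% in Tc2. By library the shares varied widely: Trbv12-2 in Tc1 ranged from 0.0 to 37.0% (median 18.8%) and was at 0 in 2 of 11 libraries, Trbv2 in Tc2 from 0.0 to 59.9% (median 19.2%, at 0 in 1) and Trbv13-2 in Tc3 from 0.0 to 55.6% (median 14.9%, at 0 in 3). As for other genes listed at 0, no upper limit is given for these zeros. Trbv13-2 was at 0 in 4 libraries in Tc1. The Trbv12-2 share was higher in Tc1 than in Tc2 in 9 of 11 libraries and at 0 in both in 2, and that of Trbv2 was higher in Tc2 in 9 of 11. These values are a description without a test between groups: counts are few (4.98 to 62.7 V beta counts per library in Tc2), V segments of a family share sequence, and the intervals cover counting error only.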
